A study of Mus musculus with 9 samples.

Results

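Galectins are proteins that bind β-galactoside sugars on glycoproteins, and Lgals3bp encodes a secreted glycoprotein that binds several of them. The 5 genes followed were Lgals3bp, Lgals3, Lgals1, Lgals8 and Lgals9, taken from the CPM table (counts per 1e+06 reads of the library) by exact gene symbol, out of 49671 listed genes. All 5 passed the filter on low values, which asked for 1 CPM or more in 3 or more libraries and kept 15041 genes. The genes were picked with their levels at the time points known, so their levels and differences are given as a description, with no p-value.

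Microglia, the brain's own macrophages, were sorted from mice killed 7, 30 or 90 days after a cortical impact injury, with 3 mice and 3 libraries at each time. All mice were male C57BL/6 (CD45.2) recipients given CD45.1 marrow from B6.SJL-Ptprca Pepcb/BoyJ donors at 8 weeks of age, after irradiation of the body with the head shielded (1000 cGy) and busulfan (30 mg/kg), and were injured at 16 weeks. The CD45.2 gate leaves out cells grown from the donor marrow but not host macrophages outside the microglial lineage. Tissue without injury was not analysed here, so each statement compares injured mice at different times.

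Galectins are made in the cytosol, act there on damaged membranes and leave the cell by a route outside the classical secretory pathway to bind surface glycans. Lgals1 encodes the prototype form with a single sugar-binding domain that pairs with itself, Lgals3 the chimera form with a sugar-binding domain on a long proline- and glycine-rich tail, and Lgals8 and Lgals9 the tandem-repeat form with a pair of different sugar-binding domains. In the brain galectin-3 is known as a product of activated, phagocytic microglia, and Lgals3bp and Lgals9 are known targets of interferon.

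Lgals3bp and Lgals3 were highest at day 7 and lowest at day 90, and these were the 2 of the 5 genes past the threshold for day 90 against day 7, where 0.246% of all genes tested were called. The genes were chosen on these values, so nothing is read from that count. Lgals3bp stood at day 90 at 33% of its day 7 mean, and Lgals3 at 18.4%. Lgals8 ranged from 69.5 to 118 CPM over the 9 libraries. Lgals9 and Lgals1 averaged less at day 90 than at day 7, by less than the fit could call. The 5 genes lie on 4 chromosomes, with Lgals3bp and Lgals9 both on chromosome 11.

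Each library had between 7210985 and 12965926 reads on genes, and 3 reads correspond to 0.231 to 0.416 CPM. The library least like the rest was day 90 replicate 1, whose median correlation across genes with the remaining libraries was 0.837, where the remaining libraries had 0.866 to 0.887. Of the 10 microglia markers all were detected, with a summed level of 14094 to 18157 CPM at day 7, 19048 to 20417 CPM at day 30 and 14978 to 21461 CPM at day 90. Libraries are called by the replicate number of the labels, which runs from 2 to 4 at days 7 and 30 and takes the values 1, 3 and 4 at day 90.

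Lgals3bp (ENSMUSG00000033880, mm10 chromosome 11, 118392751 to 118402092, minus strand, 6 exons in its principal transcript) encodes the galectin-3-binding protein, a secreted member of the scavenger receptor cysteine-rich family. At day 7 it had 575, 641 and 607 CPM in replicates 2, 3 and 4. At day 30 it had 284, 326 and 304 CPM in replicates 2, 3 and 4, and at day 90 it had 185, 192 and 225 CPM in replicates 1, 3 and 4. The 3 groups of libraries did not overlap, and each later group lay wholly below the earlier ones.

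The mean of Lgals3bp was 608 ± 33 CPM at day 7, 305 ± 20.6 CPM at day 30 and 201 ± 21.4 CPM at day 90 (SD, n = 3 each). Differences were taken on the log2(CPM + 1) scale, later minus earlier, from a limma fit over all genes and all 9 libraries. Lgals3bp differed by -1.60 ± 0.20 (SE) between day 90 and day 7, by -0.99 ± 0.20 between day 30 and day 7, and by -0.60 ± 0.20 between day 90 and day 30. The larger part of the difference thus fell in the first interval, although the 2 intervals share the day 30 libraries. Between 2021 and 6865 reads stood behind each Lgals3bp value, and the SD between libraries was 4.03 to 5.06 times what read counting alone would give.

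Lgals3 (ENSMUSG00000050335, chromosome 14, 47367751 to 47386160, plus strand, 6 exons) encodes galectin-3, which gathers on ruptured lysosomes and, outside the cell, binds receptors such as Trem2 and Tlr4. It had 69.6, 59.5 and 82.7 CPM in day 7 replicates 2, 3 and 4. It had 24.3, 69.3 and 40.5 CPM in day 30 replicates 2, 3 and 4, and 7.14, 18.9 and 12.9 CPM in day 90 replicates 1, 3 and 4. Every day 90 library lay below every other library, while day 30 replicate 3 lay among the day 7 values and day 30 replicates 2 and 4 below them.

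Mean Lgals3 was 70.6 ± 11.7 CPM at day 7, 44.7 ± 22.8 CPM at day 30 and 13 ± 5.87 CPM at day 90 (SD, n = 3 each). Its log2 differences were -2.44 ± 0.42 (SE) for day 90 against day 7, -0.76 ± 0.42 for day 30 against day 7 and -1.68 ± 0.42 for day 90 against day 30. The larger part of the Lgals3 difference lay in the second interval, unlike that of Lgals3bp. The difference between these 2 time courses was not tested, since both genes were chosen on these contrasts. Day 90 replicate 1 had the lowest Lgals3 count, 80 reads, and without that library the day 90 against day 7 difference was -2.09. The day 30 against day 7 difference ran from -1.13 without day 30 replicate 3 to -0.39 without day 30 replicate 2.

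**Figure D1:**
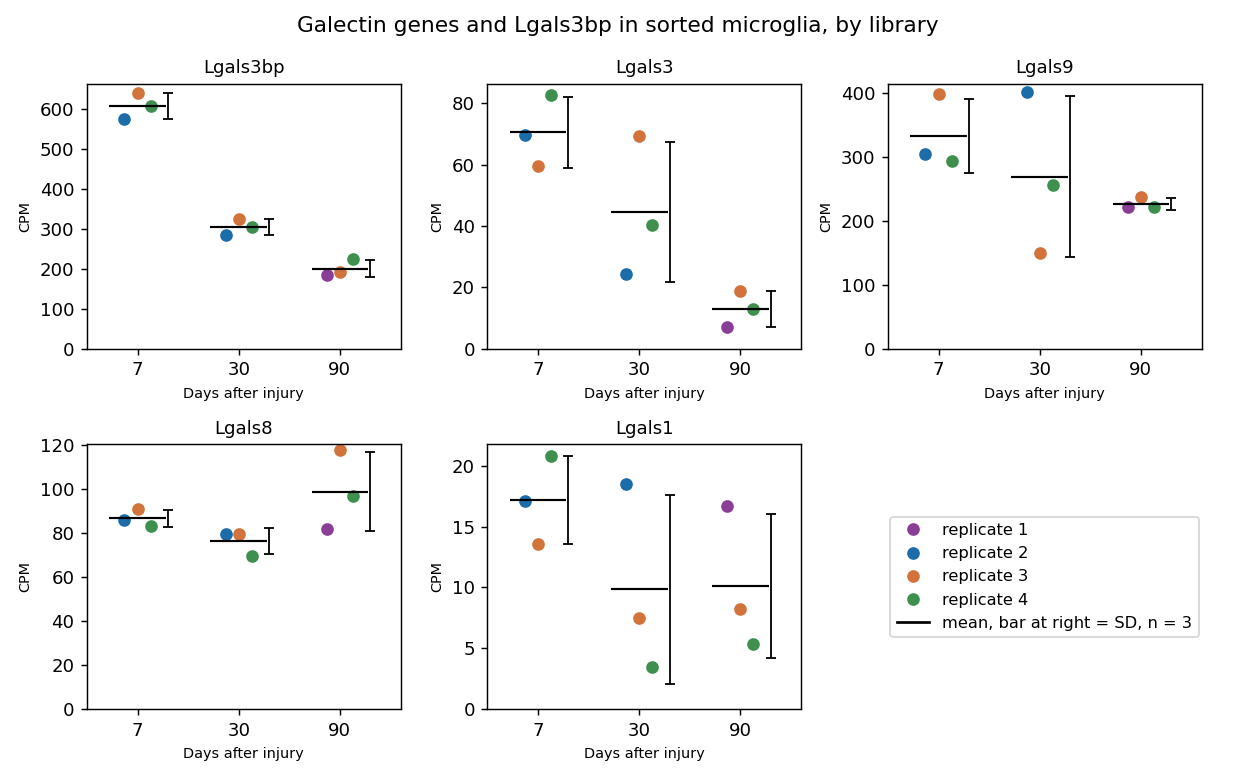
CPM of the 5 genes in each of the 9 libraries (points, coloured by replicate number) at 7, 30 and 90 days after injury, with the mean as a line and the SD as a bar (n = 3). Lgals3bp falls into 3 separate groups, the 3 day 90 libraries of Lgals3 lie below all others, and day 30 is the most scattered time for Lgals3, Lgals9 and Lgals1.

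Lgals9 (ENSMUSG00000001123, chromosome 11, 78962974 to 78984946, minus strand, 11 exons) encodes galectin-9, a ligand of the inhibitory receptor TIM-3. It had 304, 398 and 293 CPM in day 7 replicates 2, 3 and 4. It had 401, 150 and 255 CPM in day 30 replicates 2, 3 and 4, and 221, 237 and 221 CPM in day 90 replicates 1, 3 and 4. The day 90 libraries lay close together and wholly below the day 7 libraries, while the day 30 libraries spanned both.

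Mean Lgals9 was 332 ± 57.9 CPM at day 7, 269 ± 126 CPM at day 30 and 226 ± 9.21 CPM at day 90 (SD, n = 3 each). The log2 differences were -0.54 ± 0.25 (SE) for day 90 against day 7, -0.40 ± 0.25 for day 30 against day 7 and -0.14 ± 0.25 for day 90 against day 30. The SD of Lgals9 was 2.05 times the counting error at day 90, against 26.6 times at day 30. Day 30 replicate 2, the highest for Lgals9, was the lowest of that time for Lgals3, and day 30 replicate 3, the lowest for Lgals9, was the highest for Lgals3. With replicate 3 of day 30 left out, Lgals9 differed by -0.04 between day 30 and day 7 and by -0.50 between day 90 and day 30. With replicate 2 of day 30 left out these values were -0.74 and 0.21.

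Lgals8 (ENSMUSG00000057554, chromosome 13, 12439415 to 12464944, minus strand, 10 to 11 exons) encodes galectin-8, which in human cells marks damaged vesicles and recruits an autophagy receptor to them. Its values were 86.1, 91.1 and 83.4 CPM in day 7 replicates 2, 3 and 4. They were 79.9, 79.6 and 69.5 CPM in day 30 replicates 2, 3 and 4, and 82.1, 118 and 96.8 CPM in day 90 replicates 1, 3 and 4. The day 30 libraries lay below all others by a small margin, and the day 90 libraries overlapped the day 7 ones.

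Mean Lgals8 was 86.8 ± 3.94 CPM at day 7, 76.3 ± 5.95 CPM at day 30 and 99 ± 18.1 CPM at day 90 (SD, n = 3 each). Its log2 differences were 0.17 ± 0.27 (SE) for day 90 against day 7, -0.19 ± 0.27 for day 30 against day 7 and 0.36 ± 0.27 for day 90 against day 30. With a library of day 90 left out, the first ran from 0.04 (replicate 3) to 0.30 (replicate 1). The 3′ end of Lgals8 overlaps that of Heatr1, a gene on the opposite strand, over 875 bases, and the libraries count 3′ ends. Heatr1 had 4.3 to 6.72 CPM at day 7, 5.01 to 13 CPM at day 30 and 8.82 to 14 CPM at day 90. The strand setting of the counting is not given in the sources used here, so reads in the overlap may have been assigned to either gene or dropped, and the level of Lgals8 is uncertain to that extent.

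Lgals1 (ENSMUSG00000068220, chromosome 15, 78926725 to 78930465, plus strand, 4 exons) encodes galectin-1, which binds CD45 and other glycoproteins and is also made by endothelial cells and astrocytes. It had 17.1, 13.6 and 20.8 CPM in day 7 replicates 2, 3 and 4. It had 18.5, 7.53 and 3.5 CPM in day 30 replicates 2, 3 and 4, and 16.7, 8.26 and 5.33 CPM in day 90 replicates 1, 3 and 4. At days 30 and 90 a single library of each group reached the day 7 range and the other 2 lay below it.

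Mean Lgals1 was 17.2 ± 3.59 CPM at day 7, 9.85 ± 7.77 CPM at day 30 and 10.1 ± 5.9 CPM at day 90 (SD, n = 3 each). Its log2 differences were -0.82 ± 0.69 (SE) for day 90 against day 7, -0.98 ± 0.69 for day 30 against day 7 and 0.16 ± 0.69 for day 90 against day 30. With a library left out the first ran from -1.23 (without day 90 replicate 1) to -0.49 (without day 90 replicate 4), and the second from -1.53 (without day 30 replicate 2) to -0.47 (without day 30 replicate 4). The last turned to -0.35 without day 30 replicate 4 and to -0.25 without day 90 replicate 1. The Lgals1 counts ran from 40 to 240 reads per library. At days 30 and 90 the SD was 8.66 and 6.19 times the counting error, so the scatter between libraries exceeded what depth alone would give.

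Of the 5 genes, 2 were past an adjusted p of 0.05 in limma for day 90 against day 7, Lgals3bp and Lgals3, both lower at day 90, where 0.246% of all genes tested were called and 0.206% called lower. At an unadjusted p under 0.05 the count was 3, where 7.73% of all genes passed. The 5 genes were chosen on these contrasts, so nothing is read from these or the following counts. For day 30 against day 7 limma called 0 of the 5, against 0% of all genes. At an unadjusted p under 0.05 in limma the count there was 1, where 6.24% of all genes passed. At an adjusted p under 0.05 edgeR called 0 of the 5 and DESeq2 1, where over all genes they called 0 and 24. The gene called by DESeq2 was Lgals3bp, which also passed in limma with quantile normalization, with the replicate number as a block or without day 90 replicate 1. For day 90 against day 30 the 3 tools called 0 of the 5, against 0.0532% of all genes in limma, and 2 passed an unadjusted p under 0.05, as did 5.03% of all genes.

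The moderated F-test over the 3 times called 0.173% of all genes, Lgals3bp and Lgals3 among them. Non-overlapping libraries, lower at the later time, were found for Lgals3bp, Lgals3 and Lgals9 between day 90 and day 7, as for 6.27% of all genes tested, and libraries wholly higher at day 90 for 0 of the 5, as for 5.40%. They were found for Lgals3bp and Lgals8 between day 30 and day 7, as for 5.74% of all genes, and wholly higher at day 30 for 0 of the 5, as for 6.85%. Between day 90 and day 30 they were found for Lgals3bp and Lgals3, as for 6.18% of all genes, and Lgals8 was wholly higher at day 90, as for 3.75%. The members were chosen on these contrasts, so nothing is read from the counts.

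**Figure D2:**
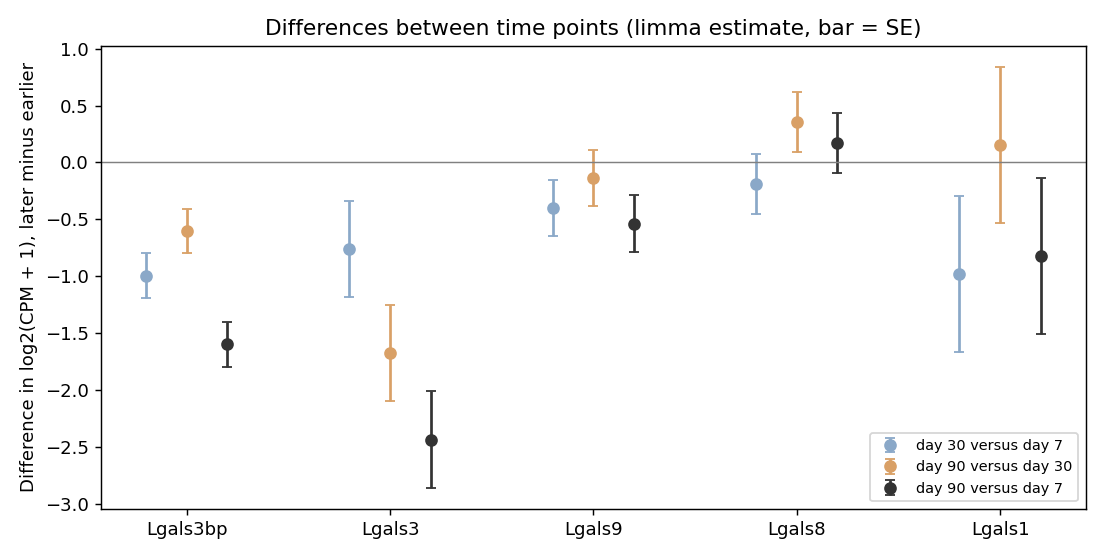
Differences in log2(CPM + 1) between time points for the 5 genes, later minus earlier, as limma estimates with their standard errors (bars; 3 libraries per time point). Lgals3bp and Lgals3 lie lowest for day 90 against day 7, at -1.60 and -2.44, and Lgals8 lies at 0.17.

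Summed over the 5 genes, the level was 1114 ± 79.4 CPM at day 7, 704 ± 91.8 CPM at day 30 and 549 ± 32.6 CPM at day 90 (SD, n = 3 each). The libraries were made from 3′ ends, with reads not scaled by transcript length, so shares of this sum are shares of reads. Lgals3bp gave 54.6% ± 1.29 of it at day 7, 44% ± 8.21 at day 30 and 36.6% ± 3.38 at day 90. Lgals9 gave 29.7% ± 3.13, 37.1% ± 12.9 and 41.3% ± 1.9 at these times, and Lgals8 7.81% ± 0.328, 10.9% ± 1.45 and 18% ± 2.36. At day 90 the Lgals9 share ran from 39.4% to 43.2% and the Lgals3bp share from 33.4% to 40.1%. Lgals3 gave 6.39% ± 1.35 at day 7, 6.66% ± 4.01 at day 30 and 2.33% ± 0.949 at day 90, and Lgals1 1.56% ± 0.396, 1.33% ± 0.894 and 1.88% ± 1.22 at these times.

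**Figure D3:**
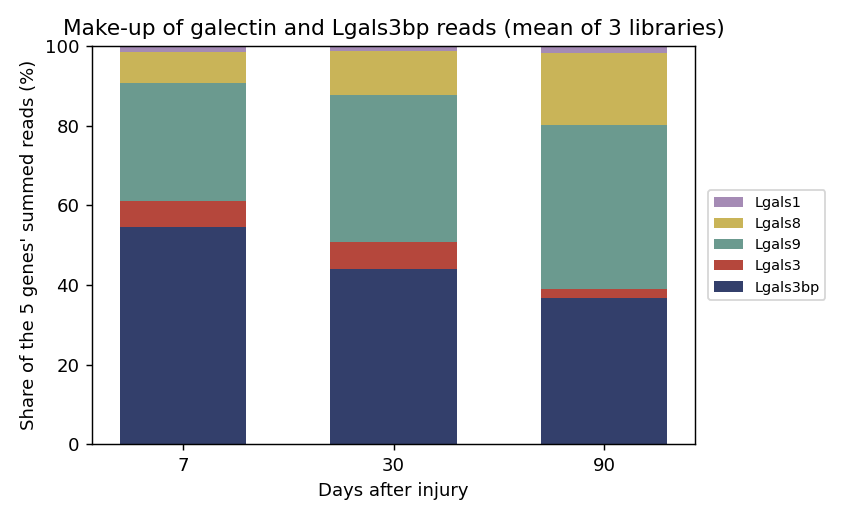
Mean share of the summed reads of the 5 genes (percent, mean of 3 libraries) at 7, 30 and 90 days after injury, stacked by gene. The Lgals3bp share is 36.6% at day 90, against 54.6% at day 7, while the shares of Lgals9 and Lgals8 are 41.3% and 18% at day 90, against 29.7% and 7.81% at day 7.

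The rest of the mouse galectin family had at most 14 CPM in any library. Lgals4, best known from gut epithelium, had 0 to 8.88 CPM and reads in 6 of 9 libraries. The galectin-related gene Lgalsl had 2.85 to 14 CPM, with 9.45 ± 5.09 CPM at day 7, 12.3 ± 1.94 CPM at day 30 and 5.56 ± 3.03 CPM at day 90, and did not pass the threshold in any contrast. Its counts, 28 to 157 reads per library, overlapped those of the member Lgals1, 40 to 240 reads. Lgals2 had 19 reads in a single day 30 library, and Lgals7, known from skin, had 12 reads in 3 libraries. Lgals12, known from fat cells, had 20 reads over 3 libraries, 18 of them in day 90 replicate 3. Grifin, a lens galectin, had 0 reads in the 9 libraries, which allows up to 0.416 CPM in the shallowest of them. No row carried the symbol Lgals6.

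Promoter windows were searched for motifs of factors known in microglia, since Lgals3bp and Lgals9 are known interferon targets. The RefSeq table (GRCm38.p6) holds a 300-base window around its own start for 4 of the 5 genes, all but Lgals1. These starts are not the outer ends of the GENCODE genes given above. The windows of Lgals3 (chromosome 14, 47373610 to 47373909) and Lgals8 (chromosome 13, 12461689 to 12461988) lie wholly inside those genes, and the windows of Lgals3bp and Lgals9 span their outer ends. Positions below are counted from the RefSeq start. The interferon-stimulated response element, searched on both strands as GAAA and again GAAA with NN between, occurred in 3.44% of the 32851 windows and, of the 4 genes, in Lgals9 alone, where it occurred at 2 places. Windows of 22 interferon-response genes were held, and 11 of these genes had it in any window, a share of genes and not of windows. The shorter core of interferon regulatory factors, AANNGAAA, lies within each such element and occurred in 23.9% of windows, among them those of Lgals9 and Lgals3bp. The stretches with the Lgals9 elements and the Lgals3bp core are shown, since of the 4 genes only these 2 held a match. The motif is in capitals, 5′ to 3′ on the gene's strand.
Lgals9, chr11:78984947-78985024, minus strand, 100 to 23 bases before the RefSeq start: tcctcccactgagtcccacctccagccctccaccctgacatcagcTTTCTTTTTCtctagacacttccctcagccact
Lgals9, chr11:78984890-78984919, minus strand, 6 to 35 bases after the RefSeq start and inside the GENCODE gene: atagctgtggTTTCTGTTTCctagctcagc
Lgals3bp, chr11:118401955-118401984, minus strand, from 25 bases before the RefSeq start and inside the GENCODE gene: tgttttctgaaAATCGAAActaggtgaggt
The Lgals9 elements read as the reverse complement of the search letters, and the Lgals3bp core reads as written. The Lgals9 window held a further core at positions -151 to -144 from the start. The windows of Lgals3 and Lgals8, around starts internal to the GENCODE genes, held neither motif. A gamma-activated site (TTCNNNGAA), a PU.1 site (GAGGAAGT), an AP-1 site (TGANTCA) and a TFEB site (TCACGTGA) were found in 8.3%, 3.2%, 7.81% and 0.974% of windows, and in 0 of the 4 genes. A match describes letters in the window and not binding, and the absence of a match says nothing of the factor.

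Genes with the most similar pattern were those with the smallest root mean square difference from a member over the 9 libraries, after each gene's log2(CPM + 1) values were centred on their mean. The search covered 8497 other genes with a mean of at least 10 CPM, leaving out symbols of the Gm-number and Rik kind. It is a description, with no test, since libraries of a time point move together. For Lgals3bp they included the progranulin gene Grn (0.24 on the log2 scale) and Calcrl (0.25), a neuropeptide receptor gene, against a median of 0.81 over all candidates. Grn stood at 2236 ± 401 CPM at day 7, 1337 ± 164 CPM at day 30 and 1002 ± 197 CPM at day 90 (SD, n = 3 each). Neither belongs to the interferon-response list.

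For Lgals3 the most similar genes were the lipase gene Lpl (0.40), the growth factor gene Igf1 (0.41) and the inhibitory receptor gene Cd300lf (0.48), against a median of 1.21. At day 30 Lpl had 187, 326 and 223 CPM, Igf1 25.5, 66.5 and 46.1 CPM and Cd300lf 28.5, 29.3 and 32.7 CPM in replicates 2, 3 and 4. Replicate 3 was highest for Lpl and Igf1, as for Lgals3, and replicate 4 for Cd300lf, in libraries that also served to choose these genes. For Lgals9 the most similar were Edf1 (0.14), Ap2b1 (0.16) and Clic1 (0.18), against a median of 0.63. For Lgals8 they were Nelfa (0.13), Arhgap25 and Arpc4 (0.14 each), against 0.50, and for Lgals1 Kcne2 (0.35), Ric1 (0.36) and Myof (0.37), against 0.89. Lgals8 itself varied by 0.20 about its mean, so that many genes of little variation lie near it.

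Genes that act with the galectins were taken as 3 lists: receptors and glycoprotein ligands, proteins of the response to damaged membranes, and enzymes that build or mask the sugars galectins bind. The interferon-response genes were added as another list. All these lists were chosen with earlier results of these data known, so their counts and p-values are given as a description. Over all genes tested limma called 0.246% between days 90 and 7, 0% between days 30 and 7 and 0.0532% between days 90 and 30. Of 18 receptor and ligand genes, limma called 0 in any of the 3 contrasts, near those shares. At an unadjusted p under 0.05 in limma there were 1 between days 90 and 7, 3 between days 30 and 7 and 1 between days 90 and 30. Over all genes tested 7.73%, 6.24% and 5.03% passed in that order. In each contrast edgeR and DESeq2 called 0 of the list. The median log2 difference of the list between day 90 and day 7 was -0.10, against -0.02 over all genes. Closest to the threshold were Nrp1, a guidance and growth factor co-receptor that galectin-1 binds, at 104 ± 9.71 CPM at day 90, against 152 ± 12.8 CPM at day 7 (n = 3 each, limma adjusted p = 0.552), and the galectin-9 ligand gene Vsir, at 1268 ± 96.3 CPM at day 90, against 990 ± 68.9 CPM at day 7 (limma adjusted p = 0.655).

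For day 30 against day 7 the closest of the receptors were Tlr4, which binds galectin-3, at 48.7 ± 12.1 CPM at day 30, against 21.3 ± 5.92 CPM at day 7 (limma adjusted p = 0.601), and Vsir again, at 1376 ± 54 CPM at day 30, against 990 ± 68.9 CPM at day 7 (adjusted p = 0.691). For day 90 against day 30 they were Mertk, a receptor for apoptotic cells that galectin-3 binds (log2 difference -0.44 ± 0.20 SE, limma adjusted p = 0.953), and Tlr4 (-0.60 ± 0.40, adjusted p = 0.959). Their directions did not turn in any of the alternatives run. These reuse the libraries by which the genes were picked, so nothing is read from that.

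Of the 27 genes of the membrane damage response 24 were tested. Of these 1 rose between day 90 and day 7 in limma and 0 fell, where 0.0399% of all genes were called higher. The gene was Sqstm1, which encodes the autophagy receptor p62, brought to damaged vesicles along with galectins. It had 386, 505 and 630 CPM in day 90 replicates 1, 3 and 4, against 227, 260 and 227 CPM in day 7 replicates 2, 3 and 4. The groups did not overlap, and the log2 difference was 1.06 ± 0.21 (SE, limma adjusted p = 0.0108), with adjusted p from 0.0503 to 0.111 and the call lost without day 7 replicates 2 or 4, without day 90 replicates 3 or 4, or with only those 2 times in the fit. It stood at 374 ± 63.2 CPM at day 30. The call was also lost with edgeR (adjusted p = 0.057) and without a filter on low values (0.358).

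At an unadjusted p under 0.05 in limma, 4 of the 24 passed for day 90 against day 7, where 7.73% of all genes did. In the other contrasts limma called 0% of all genes (days 30 and 7) and 0.0532% (days 90 and 30). The list had 0 calls in them by the 3 tools. At an unadjusted p under 0.05 there were 5 for day 30 against day 7 and 1 for day 90 against day 30, where 6.24% and 5.03% of all genes passed. Closest there were Sqstm1 and the autophagy kinase gene Ulk1 at day 30 against day 7 (log2 differences 0.64 and 0.70, limma adjusted p = 0.571 and 0.738). Between day 90 and day 30 they were the autophagy receptor gene Optn and Sqstm1 (-2.06 and 0.42, adjusted p = 0.953 and 0.955). The list median was -0.11 between days 90 and 7, 0.04 between days 30 and 7 and 0.04 between days 90 and 30, where all genes had -0.02, 0.04 and -0.06. Between days 90 and 7 Lgals3 differed by -2.44 and Lgals3bp by -1.60.

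Limma called 0.246% of all genes between days 90 and 7, 0% between days 30 and 7 and 0.0532% between days 90 and 30. Of 24 genes of glycan synthesis 23 were tested and 0 were called in any contrast by limma, edgeR or DESeq2. At an unadjusted p under 0.05 in limma there were 0 between days 90 and 7, 3 between days 30 and 7 and 1 between days 90 and 30. Over all genes tested 7.73%, 6.24% and 5.03% passed in that order. Between day 30 and day 7, 19 of the 23 were higher and 4 lower at day 30, where 46.8% of all genes were lower, with a median of 0.27 against 0.04 over all genes. Mgat5, whose product adds the branch on which galectin ligands are built, had 82 ± 6.25 CPM at day 30 and 52.3 ± 6.44 CPM at day 7 (n = 3 each, limma adjusted p = 0.762). The sialyltransferase gene St3gal1 had 29.3 ± 14.8 CPM at day 30 and 56.6 ± 20.2 CPM at day 7 (log2 difference -1.001, adjusted p = 0.725). Between day 90 and day 30, 17 of 23 were lower at day 90, where 55% of all genes were, with a median of -0.26 against -0.06. The core 2 enzyme gene Gcnt1 and the sialyltransferase gene St3gal6 were closest there (-0.46 and -0.42, limma adjusted p = 0.955 each). Between day 90 and day 7 the median was 0.02, with B4galt4 and Gcnt2 closest (0.64 and -0.65, adjusted p = 0.643 and 0.659). With 1 library left out, these log2 differences came down to 0.36 for B4galt4 (without day 7 replicate 4), -0.26 for Gcnt2 (without day 90 replicate 4), -0.15 for St3gal6 (without day 90 replicate 1) and -0.52 for St3gal1 (without day 30 replicate 4).

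Of 30 interferon-response genes 29 were tested. The list was chosen with earlier results of these data known, so nothing is read from its counts and p-values. Between day 90 and day 7, 2 fell and 0 rose in limma, edgeR and DESeq2 alike by count, where limma called 0.206% of all genes lower. At day 90, 28 of the 29 were lower, where 51.6% of all genes were, with a median of -1.11 against -0.02 over all genes. An unadjusted p under 0.05 in limma was reached by 18 of the 29, where 7.73% of all genes passed. The 2 that fell in limma were the tetherin gene Bst2, at 121 ± 43.4 CPM at day 90, against 303 ± 68 CPM at day 7 (n = 3 each, limma adjusted p = 0.00488), and the transcription factor gene Irf7, at 11.2 ± 0.611 CPM at day 90, against 66.2 ± 25.5 CPM at day 7 (limma adjusted p = 0.0207). The call of Bst2 needed replicate 3 of both times (-1.18 without that of day 7, -1.20 without that of day 90), and that of Irf7 needed replicates 3 and 4 of both times (-2.20 and -2.19 without those of day 7, -2.40 and -2.34 without those of day 90). Without a filter on low values both were lost (adjusted p = 0.408 each), and Irf7 also at a pseudocount of 0.1 CPM (0.0552).

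The summed level of the interferon list was 1970 ± 214 CPM at day 7, 1042 ± 13.9 CPM at day 30 and 1086 ± 206 CPM at day 90 (SD, n = 3 each). Its median log2 difference was -0.85 for day 30 against day 7 and 0.04 for day 90 against day 30, against 0.04 and -0.06 over all genes. Over the same intervals Lgals3bp differed by -0.99 and -0.60, and Lgals9 by -0.40 and -0.14. For day 30 against day 7 limma and edgeR called 0 of the list and DESeq2 1. Over all genes these tools called 0, 0 and 24. An unadjusted p under 0.05 in limma was reached by 15 of the 29 tested, where 6.24% of all genes passed. Bst2 and Irf7 were closest there (-1.11 and -2.02, limma adjusted p = 0.255 and 0.362), and limma called 2 of the list without day 90 replicate 1. For day 90 against day 30 the 3 tools called 0, with 1 at an unadjusted p under 0.05, where 5.03% of all genes passed. At an adjusted p under 0.05 limma called 0.0532% of all genes there. Ifit3 and Ifi27l2a were closest in that contrast (-1.87 and -1.26, limma adjusted p = 0.842 and 0.955).

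**Figure D4:**
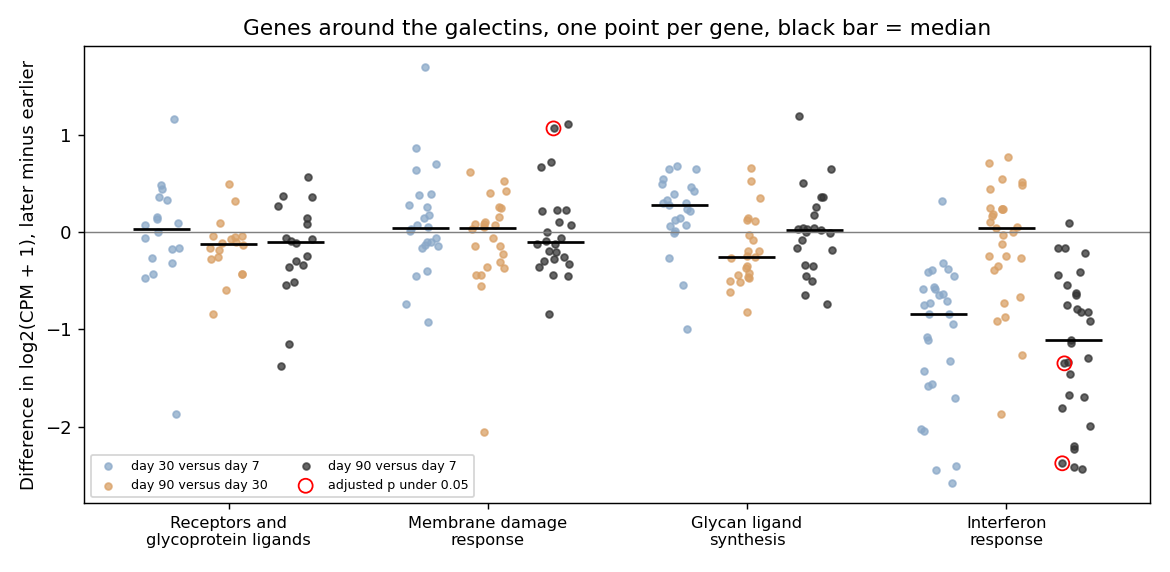
Differences in log2(CPM + 1) between time points, later minus earlier, for each tested gene of the 4 lists (points, coloured by contrast; black bars are medians; red circles mark a limma adjusted p under 0.05). The interferon medians are -0.85 for day 30 against day 7 and -1.11 for day 90 against day 7, while the medians of the other 3 lists lie between -0.26 and 0.27.

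Markers of other cells were also detected. Summed over its 10 genes, the monocyte list had 246 to 284 CPM at day 7, 121 to 200 CPM at day 30 and 125 to 179 CPM at day 90, with most of the sum from Fn1, which other cells also make. Their median log2 difference was -1.30 between day 90 and day 7, with 0 of 9 tested members called, against 0.246% of all genes. The defining monocyte gene Ccr2 ranged from 0.354 to 17.5 CPM at day 7, from 2.28 to 13.7 CPM at day 30 and from 0.357 to 7.02 CPM at day 90. All 10 border macrophage markers were detected, with a sum of 268 to 351 CPM at day 7, 191 to 232 CPM at day 30 and 212 to 311 CPM at day 90, and Stab1 the most abundant of them. Monocytes and border macrophages are known to express Lgals3, and their part in the Lgals3 and Lgals3bp differences was not tested. In bulk samples, fewer cells of a type and less RNA per cell cannot be told apart.

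Endothelial and pericyte markers summed to 2520, 2954 and 1730 CPM in day 7 replicates 2, 3 and 4. The sums were 1832, 1669 and 1334 CPM in day 30 replicates 2, 3 and 4, and 3446, 1436 and 1078 CPM in day 90 replicates 1, 3 and 4. Within days 30 and 90 the order of libraries was that of Lgals1, while at day 7 the library highest in Lgals1, replicate 4, was the lowest in these markers. The same held for the monocyte list. Its sums were 200, 130 and 121 CPM in day 30 replicates 2, 3 and 4 and 179, 133 and 125 CPM in day 90 replicates 1, 3 and 4. It was also lowest of day 7 in replicate 4, at 246 CPM. Neuron markers ran in the reverse order, at 341, 411 and 532 CPM in these day 30 libraries and 212, 278 and 376 CPM in these day 90 ones. So did oligodendrocyte markers, at 277, 368 and 369 CPM and at 186, 274 and 373 CPM. The part of the cells of any of these lists in the Lgals1 level was not tested. Astrocyte markers summed to 174 to 256 CPM at day 7, 230 to 295 CPM at day 30 and 180 to 270 CPM at day 90, ranges that overlap. They followed neither order within days 30 and 90. Neutrophil markers summed to 82.7 to 352 CPM at day 7, 92.5 to 165 CPM at day 30 and 57.9 to 166 CPM at day 90. Markers of T and NK cells summed to at most 9.99 CPM in any library, with Ncr1 at 0 reads. Of the B cell markers Cd79a, Pax5, Blk and Ms4a1 were at 0 reads in every library, and nearly all of that list's sum was Ighm.

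**Figure D5:**
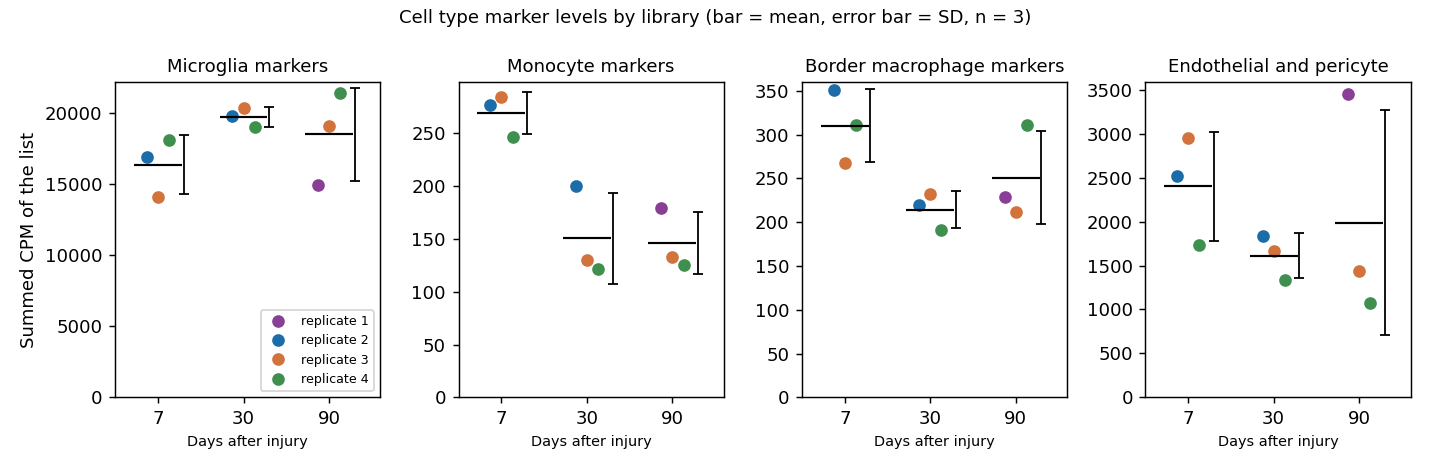
Summed CPM of 4 marker lists in each of the 9 libraries (points, coloured by replicate number) at 7, 30 and 90 days after injury, with mean (line) and SD (bar, n = 3). The monocyte sum is highest in the 3 day 7 libraries, at 246 to 284 CPM, and the endothelial and pericyte sum is highest in day 90 replicate 1, at 3446 CPM.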

How the data were processed

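Microglia of 9 mice were profiled with QuantSeq 3′ mRNA libraries on a NextSeq 500, per the labels' protocols. Per the submitters' processing notes the authors' tools include STAR, HTSeq and bcl2fastq, and the build is mm10; in the sources used here, versions and the strand setting are not given. The deposited values are CPM, as each column sums to 1e+06. Dividing by the smallest step gave whole reads for 100% of values (tolerance 1e-06). The low-value filter, pseudocount of 1 CPM and limma fit (R 4.3.3, limma 3.58.1, mean trend, 1 mean per time, two-sided, Benjamini-Hochberg over 15041 genes, threshold 0.05) follow the earlier treatment of these data. The recovered reads were tested with edgeR 4.0.16 (22 genes between days 90 and 7, 0 between days 30 and 7, 7 between days 90 and 30) and DESeq2 1.42.0 (123, 24 and 29 in that order). The fit was also run on simulated counts with the same spread setting for every gene, unlike these data, as a check of the code only. Positions are from GENCODE M21. The members and lists were chosen with earlier results of these data known. Beyond the members, genes were named when past the threshold in a list, or as the 2 with the smallest p where a list had none; for each marker list the most abundant gene; and the 3 most similar genes per member, of which 1 is not reported here. The fit has no replicate block. The p-values measure the spread between libraries, each from a different mouse, so mice and preparations are not separated. In limma each gene's spread was moderated toward a trend over all genes (28.4 prior and 6 residual degrees of freedom). Floors cover counting error only. Alternatives are given in the closing section.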

Additional observations from a re-analysis of the deposited data

How the results depend on the processing

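Over 20 alternatives (a pseudocount of 0.1 or of 5 CPM, a filter at 10 CPM or none, quantile normalization, median-of-ratios scaling, edgeR, DESeq2, a robust spread, only the 2 times compared, a replicate block, and each library left out), the 15 log2 differences of the 5 genes moved by less than the SD between replicates. Lgals3bp was past the threshold for day 90 against day 7 in all 20 (-1.68 to -1.54) and Lgals3 in 19 (-2.74 to -2.09), the exception being no filter on low values, which left 1 of the 5 genes called. For day 30 against day 7, 1 of the 5 (Lgals3bp) passed with quantile normalization, DESeq2 and the replicate block, and 0 to 1 with a library left out. In the F-test 2 of the 5 passed, with 0 without a filter, 1 with edgeR, and 1 to 2 with a library left out. The genes were chosen on these contrasts and the alternatives reuse the same libraries, so nothing is read from these passes.

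Counts over all genes moved more. For day 90 against day 7, 37 genes passed, with 1 without a filter, 22 with edgeR, 123 with DESeq2, 18 with only those times in the fit, and 18 to 65 with a library left out (18 without day 7 replicate 2, 65 without day 90 replicate 1). For day 30 against day 7, 0 passed, with 3 at a pseudocount of 5 CPM, 2 with quantile normalization, 24 with DESeq2, 10 with the replicate block and 0 to 8 with a library left out (8 without day 90 replicate 1). For day 90 against day 30, 8 passed, with 0 without a filter, 29 with DESeq2, 5 with only those times, and 4 to 17 with a library left out (4 without day 30 replicate 3, 17 without day 90 replicate 4). In the F-test 26 passed, with 15 at a pseudocount of 0.1 CPM, 0 without a filter, 16 with edgeR, 55 with DESeq2, and 11 to 53 with a library left out.

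The 1 membrane damage gene called for day 90 against day 7 was 0 without a filter, with edgeR and with only those times, and 0 to 1 with a library left out. The 2 interferon genes were 1 at a pseudocount of 0.1 CPM, 0 without a filter, 3 with the replicate block, and 0 to 3 with a library left out. For day 30 against day 7 the interferon count of 0 was 1 with DESeq2, 3 with the replicate block and 0 to 2 with a library left out. No other list count changed, and the cause of these changes was not tested. The replicate numbers are shared between times. Over all genes tested, deviations from the time point mean did not correlate above 0.1 in any of 7 same-numbered pairs of libraries (r from -0.0446 to 0.0389). An effect shared by same-numbered libraries on part of the genes was not tested. Lgals1, at 40 to 240 reads per library, varied between libraries beyond counting error, and whether that spread lies between mice or between preparations was not tested.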
